A study of Mus musculus with 2 samples.

Results

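Surface molecules used to sort blood progenitors were measured here in the same cells as antibody tags and as RNA. The antibody tags are CD117, CD34 and CD16_32, spelled as the files do, and the genes are Kit, Cd34, Fcgr3 and Fcgr2b, which are 4 of 32285 genes and 3 of the 13 antibody tags that are not hashtags. They were chosen by what the antibodies bind and not by any value: the CD117 antibody binds the product of Kit, the CD34 antibody that of Cd34, and the CD16_32 antibody the products of both Fcgr3 (CD16) and Fcgr2b (CD32). All 7 features were found in both libraries. The assay, CITE-seq, counts unique molecular identifiers (UMIs) of RNA and of antibody barcodes for each single cell.

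The cells came from mouse bone marrow 10 weeks after a transplantation and were isolated as positive for Kit and for CD45.2. CD45.2 is a surface allele that tells donor from host cells in such transplants, so the cells of both libraries share the transplanted setting and the gate. There was 1 control library, and 1 library was labelled Utx-deleted and is called the Utx-labelled library below. Utx, also called Kdm6a, encodes a histone demethylase. Strain, sex, the deleting allele or agent and the number of animals are not given in the sources used here. Both libraries carry 2 hashtags, antibody barcodes that mark pooled cells. What each hashtag marks is not given, so the hashtag populations show the spread within 1 library and are no replicates.

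With 1 library per group no difference between the libraries has a replicate check, and no test was made. RNA is given as CPM (the summed UMIs of the cells, scaled to a total of 1000000 gene UMIs), with an exact Poisson 95% interval, and ratios between summed counts have a 95% interval as well. These intervals cover counting error only. Tag values are antibody UMIs per cell, with the quartiles over cells. CPM is a share of a cell's RNA while a tag value is an amount. Many comparisons between cells that differ in depth therefore also give the RNA as UMIs per cell, and the others are in CPM alone. The cells are labelled as sorted on Kit, so levels of CD117 and Kit are those among cells that passed the gate. Most kept cells still carried little CD117 tag, since 20.8% of control cells and 19.1% of the others had at least 100 CD117 UMIs.

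After filters, 7011 control cells and 7206 cells of the Utx-labelled library were kept, with medians of 12367 and 11816.5 gene UMIs and of 1939 and 1899.5 antibody UMIs per cell. The libraries shared 17 barcodes, 13 of them among kept cells. Kdm6a itself was at 109.8 CPM (107.9 to 111.8) in the control library and 103.2 CPM (101.3 to 105.1) in the Utx-labelled library. Counting at the 3′ end does not show whether internal exons are missing, so this value checks nothing about the label. Maturing-neutrophil-like cells, of a class named by markers such as Ltf, Camp and Ngp, made up 73.2% and 74.8% of the kept cells. Of their 12 clusters, 9 drew over 90% of their cells from a single library, namely clusters 0, 5, 8, 9 and 11 from the control library and clusters 1, 2, 3 and 4 from the Utx-labelled library. Differences within this class are therefore between largely separate clusters. The other classes compared were HSC/MPP-like cells (hematopoietic stem cells and multipotent progenitors; 567 and 282 cells), neutrophil-progenitor-like cells (371 and 558), monocyte-progenitor-like cells (290 and 606) and megakaryocyte-progenitor-like cells (327 and 115). Eosinophil genes Prg2 and Prg3 were among the leading genes of the HSC/MPP-like cluster, and the erythroid genes Car1 and Aqp1 among those of the megakaryocyte-progenitor-like cluster.

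Kit is the receptor tyrosine kinase for stem cell factor. It is carried by hematopoietic stem and progenitor cells and by mast cells, and myeloid cells lose it as they mature. CD34 is a sialomucin of early progenitors, endothelium and mouse mast cells. Fcgr3 is an activating low-affinity receptor for IgG that signals through the shared chain encoded by Fcer1g, whereas Fcgr2b is the inhibitory receptor of the family, with a signalling motif of its own. Flow cytometry divides Kit-positive myeloid progenitors by CD34 and CD16/32, because granulocyte and monocyte progenitors carry both, common myeloid progenitors carry CD34 with less CD16/32, and megakaryocyte and erythroid progenitors carry little of either.

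In GRCm38 with the GENCODE M21 annotation, Kit (ENSMUSG00000005672) lies on the plus strand at chr5:75574916-75656722 and Cd34 (ENSMUSG00000016494) on the plus strand at chr1:194938819-194961279. Fcgr3 (ENSMUSG00000059498) at chr1:171051174-171064935 and Fcgr2b (ENSMUSG00000026656) at chr1:170958617-170976547 lie on the minus strand, 74626 bases apart. An antibody against CD16/32 reads both products, and the coding sequences show how alike these are: 658 of 784 aligned coding bases were identical (83.9%). The most alike stretch of 150 coding bases spans exons 3 and 4 of each gene and is printed to show the part that the paralogs share. It covers chr1:171057691-171057814 and chr1:171054168-171054193 in Fcgr3, and chr1:170967980-170968103 and chr1:170966675-170966700 in Fcgr2b. The sequences are given from 5′ to 3′ on the minus strand, and the capital marks the only base that differs between them.
Fcgr3: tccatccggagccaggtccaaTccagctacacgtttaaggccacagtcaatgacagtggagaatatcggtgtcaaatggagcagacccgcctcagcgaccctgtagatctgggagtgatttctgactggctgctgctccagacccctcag
Fcgr2b: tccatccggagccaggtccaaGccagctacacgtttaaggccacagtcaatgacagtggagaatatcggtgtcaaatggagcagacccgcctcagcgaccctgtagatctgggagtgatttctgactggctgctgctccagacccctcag

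The RNA of these genes could still be told apart at the end of the transcript that the assay reads. Of the 1317 words of 31 bases in the Fcgr3 transcript, 233 also occurred in Fcgr2b. None of the 470 such words in the last 500 bases of either transcript occurred in the other. The counting of reads that fall in the shared exons is not given in the sources used here, so UMIs from there remain uncertain between Fcgr3 and Fcgr2b.

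Kit RNA was highest in progenitor-like cells and lowest in maturing-neutrophil-like and B-cell-like cells. In the control library it was 286.3 CPM in megakaryocyte-progenitor-like cells (274.9 to 298.0), 257.6 CPM in HSC/MPP-like cells (249.7 to 265.6) and 237.1 CPM in basophil- or mast-cell-like cells (214.6 to 261.3). The last 2 intervals overlap, so the order of these neighbours is not settled by the counts. Neutrophil-progenitor-like cells had 131.7 CPM (125.1 to 138.6) and monocyte-progenitor-like cells 105.9 CPM (99.6 to 112.5). Maturing-neutrophil-like cells had 36.7 CPM (35.1 to 38.2), near the 25.2 CPM (17.02 to 36.0) of B-cell-like cells, whose interval overlaps it. The order differed at the top in the Utx-labelled library, with basophil- or mast-cell-like cells at 951.7 CPM (891.5 to 1015), HSC/MPP-like cells at 252.4 CPM (242.2 to 262.9) and megakaryocyte-progenitor-like cells at 199.4 CPM (185.2 to 214.5).

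The CD117 tag followed this order in part. HSC/MPP-like cells had the highest medians, 218 UMIs per cell in the control library (quartiles 148 and 295) and 225.5 in the Utx-labelled library (159.2 and 303.8). Neutrophil-progenitor-like cells followed with 193 and 211.5, which places them above megakaryocyte-progenitor-like cells (166 and 126) on the protein tag although they were below them in Kit RNA in both libraries. Monocyte-progenitor-like cells had medians of 126 and 127, and basophil- or mast-cell-like cells 95 and 123. Maturing-neutrophil-like cells had 19 and 12 UMIs, which was under the medians of B-cell-like cells (26 and 14) and of T- or NK-cell-like cells (25 and 19). Kit RNA in the few T- or NK-cell-like cells was nevertheless 137.4 and 142.8 CPM, from 39 and 43 UMIs in 17 of 33 and 19 of 37 cells.

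Part of the high Kit level of basophil- or mast-cell-like cells in the Utx-labelled library lay in a small set of cells. Cma1 and Mcpt4 encode mast cell proteases, and 14 of the 61 cells in that library had at least 5 UMIs of them, against 1 of 94 control cells. These 14 cells had 3034 CPM of Kit and a median of 1102 CD117 UMIs. The other 47 cells had 570.3 CPM (519.9 to 624.3) and a median of 71 CD117 UMIs. The other 93 control cells had 225.7 CPM (203.7 to 249.4) and a median of 94. The CPM is a sum that few cells can carry, since 10 of the 61 cells held 55.3% of the Kit UMIs, and the tag value is a median, so the RNA and tag values of this class are not set against each other. This division was made after the values were seen.

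Cd34 RNA was confined to a narrower range of classes than Kit. HSC/MPP-like cells had 327.0 CPM in the control library (318.1 to 336.0) and 232.8 CPM in the Utx-labelled library (223.1 to 242.9). In the control library monocyte-progenitor-like cells followed at 173.4 CPM (165.3 to 181.8), then basophil- or mast-cell-like cells at 105.7 CPM. In the Utx-labelled library basophil- or mast-cell-like cells, at 177.4 CPM from 173 UMIs, stood above monocyte-progenitor-like cells, at 165.0 CPM (159.1 to 171.0). Neutrophil-progenitor-like cells had 76.0 and 58.3 CPM and megakaryocyte-progenitor-like cells 39.8 and 38.1 CPM. Maturing-neutrophil-like cells were at 1.77 CPM (1.45 to 2.15) and 1.10 CPM (0.863 to 1.39), so the RNA fell by more than Kit RNA did between progenitor-like and maturing cells. The CD34 tag was highest in HSC/MPP-like cells, with medians of 45 and 52 UMIs, and next in monocyte-progenitor-like cells, with 40 and 44. In neutrophil-progenitor-like cells the medians were 12 and 13. Basophil- or mast-cell-like cells had 7.5 and 19. Megakaryocyte-progenitor-like and maturing-neutrophil-like cells had medians of 2 to 8 UMIs, close to those of B-cell-like cells (3 and 3.5).

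Fcgr3 RNA was highest in neutrophil-progenitor-like cells, at 161.2 CPM (153.9 to 168.8) in control neutrophil-progenitor-like cells and 154.8 CPM (148.5 to 161.4) in those of the Utx-labelled library. Basophil- or mast-cell-like cells had 123.8 and 68.7 CPM, maturing-neutrophil-like cells 111.5 and 97.8 CPM, and monocyte-progenitor-like cells 108.0 and 114.0 CPM. Fcgr3 was lower in HSC/MPP-like cells, at 31.9 and 56.1 CPM, and lowest of the 5 compared classes in megakaryocyte-progenitor-like cells, at 3.60 CPM (2.43 to 5.14) and 8.50 CPM (5.78 to 12.1). Fcgr2b RNA differed less than Fcgr3 among 4 of these classes. It was at 57.2 and 43.8 CPM in neutrophil-progenitor-like, 50.5 and 48.6 in monocyte-progenitor-like, 49.8 and 39.0 in maturing-neutrophil-like and 33.7 and 44.7 in HSC/MPP-like cells. Megakaryocyte-progenitor-like cells were far lower for this gene too, at 7.80 CPM (6.02 to 9.94) and 8.23 CPM (5.55 to 11.8). Dendritic-cell-like cells had the highest Fcgr2b level, 114.6 CPM (91.1 to 142.2) in 36 control cells and 59.0 CPM (48.7 to 70.8) in 89 cells of the other library. Few cells carried much of it, since 10 cells held 65.9% of the 82 control UMIs and 10 cells 41.7% of the 115 UMIs in the other library.

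Over all kept cells the CD16_32 tag was the most abundant of the 3 tags, but its median was below that of CD117 in HSC/MPP-like and megakaryocyte-progenitor-like cells. In the control library its median was 918 UMIs in monocyte-progenitor-like cells (quartiles 383 and 1360), 524 in neutrophil-progenitor-like cells (364 and 728.5) and 496 in maturing-neutrophil-like cells (365 and 671). HSC/MPP-like cells had a median of 96 with wide quartiles (47 and 259). Megakaryocyte-progenitor-like cells were at 45, and B-cell-like cells were lowest at 22. Monocyte-progenitor-like cells of the control library thus carried the most tag, while their Fcgr3 RNA stood below that of neutrophil-progenitor-like cells, at 3.69 against 4.89 UMIs per cell. Their Fcgr2b RNA was 1.72 against 1.73 UMIs per cell. In the Utx-labelled library monocyte-progenitor-like cells again had more tag (468 against 266.5), with less Fcgr3 (3.39 against 4.01 UMIs per cell) and more Fcgr2b (1.45 against 1.13).

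**Figure D1:**
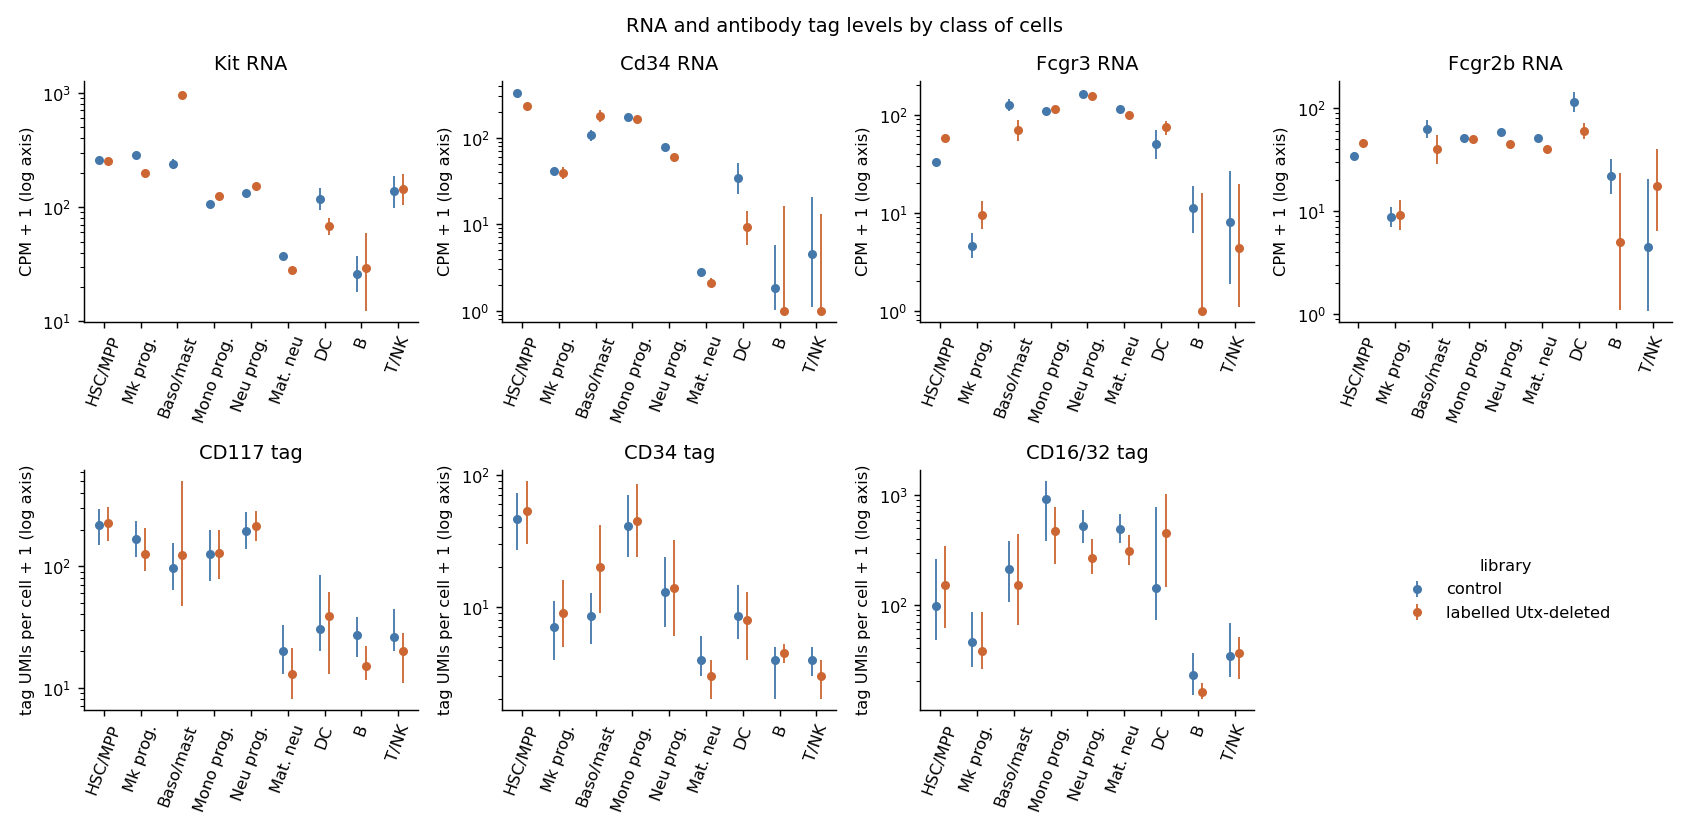
The upper panels plot RNA of Kit, Cd34, Fcgr3 and Fcgr2b as CPM + 1 on a log axis with exact Poisson 95% intervals, and the lower panels the median CD117, CD34 and CD16_32 UMIs per cell + 1 with quartiles over cells, for 9 classes; blue is the control library and orange the Utx-labelled library. Cd34 stands highest in HSC/MPP-like cells (327.0 CPM in the control library), Kit is high in both HSC/MPP-like and megakaryocyte-progenitor-like cells (257.6 and 286.3 CPM), and Fcgr3 is lowest in megakaryocyte-progenitor-like, B-cell-like and T- or NK-cell-like cells.

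Tag and RNA were next set side by side in the same cells, by dividing the kept cells of each library into quintiles of equal number by the tag. Kit RNA rose from 24.9 to 29.9, 36.5, 72.5 and 204.4 CPM over the control quintiles by CD117, and from 18.8 to 20.3, 26.7, 55.5 and 182.1 CPM in the Utx-labelled library. The highest quintile was 8.17-fold and 9.66-fold above the lowest (log2 3.03, 2.85 to 3.23, and 3.27, 3.08 to 3.48). Both libraries rose most over the last 2 steps. Median depth rose along the quintiles too, from 7003 to 29170 and from 7942 to 28380 gene UMIs per cell, and Kit UMIs per cell rose 34.6-fold and 36.7-fold, from 0.176 to 6.09 and from 0.148 to 5.44. Cd34 RNA was even more concentrated: it was 3.14, 4.67, 4.11, 10.0 and 203.9 CPM over the control quintiles by CD34, and 1.06, 0.997, 1.45, 7.22 and 147.6 CPM in the other library.

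As a share of RNA, Fcgr3 did not track its tag in this way. Over the control quintiles by CD16_32 it was 24.8, 123.1, 124.3, 112.6 and 109.9 CPM, so its clear rise lay between the first and the second quintile. The Utx-labelled library had 68.3, 124.4, 110.9, 103.2 and 100.9 CPM. Fcgr2b CPM rose with the tag through every quintile, from 22.1 to 43.9, 47.2, 50.9 and 60.0 CPM in the control library and from 29.6 to 35.6, 40.0, 44.3 and 48.6 CPM in the other. The top quintile over the lowest was 4.43-fold and 1.48-fold for Fcgr3, and 2.72-fold and 1.64-fold for Fcgr2b. Per cell, Fcgr3 went from 0.444 UMIs in the lowest quintile to 1.38 in the second and 2.44 in the highest of the control library, and from 1.05 to 1.47 and 2.45 in the other. Both genes thus had their highest UMIs per cell in the top quintile, which was also the deepest (19720 and 22290 gene UMIs per cell). Over 30 sums of clusters within libraries, Spearman's rho between the tag's median and the RNA was 0.83 for CD117 and Kit, 0.87 for CD34 and Cd34, 0.35 for CD16_32 and Fcgr3 and 0.59 for CD16_32 and Fcgr2b. Within the control and the Utx-labelled library, over 16 and 14 clusters, it was 0.72 and 0.85 for Kit, 0.82 and 0.93 for Cd34, 0.28 and 0.086 for Fcgr3, and 0.65 and 0.46 for Fcgr2b. The pooled value for Fcgr3 lies above that of either library. These sums share libraries and neighbouring cell states, so rho is a description.

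Within a class, the relation of CD117 to Kit was flatter. In HSC/MPP-like cells Kit RNA was 1.21-fold higher in the top than in the lowest CD117 quintile in the control library (log2 0.28, 0.12 to 0.43) and 1.09-fold in the Utx-labelled library (0.12, -0.08 to 0.33), where the interval spans 0. The top quintile was deeper, and Kit UMIs per cell were 2.20-fold and 1.64-fold higher in it. Per cell, Kit was 5.247-fold and 4.944-fold higher in maturing-neutrophil-like, 4.566-fold and 3.011-fold in monocyte-progenitor-like, and 2.129-fold and 1.498-fold in neutrophil-progenitor-like cells. In CPM, maturing-neutrophil-like cells gave 1.93-fold and 1.83-fold, monocyte-progenitor-like cells 3.34-fold and 2.37-fold, and neutrophil-progenitor-like cells 1.40-fold and 1.02-fold. For Cd34 by CD34 the top over the lowest quintile was 16.97-fold and 20.7-fold in neutrophil-progenitor-like cells, 3.91-fold and 2.77-fold in monocyte-progenitor-like cells, and 1.58-fold and 1.87-fold in HSC/MPP-like cells. In maturing-neutrophil-like cells, where Cd34 RNA was lowest of the 5 classes, it was 1.31-fold and 1.77-fold, and both intervals span no change (log2 -0.52 to 1.39 and -0.09 to 1.94).

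CD16_32 and Fcgr3 went together within HSC/MPP-like cells, whereas in maturing neutrophils the direction depended on the scale. In CPM, Fcgr3 in the top over the lowest quintile was also 4.90-fold and 2.625-fold in monocyte-progenitor-like cells. It was 8.63-fold and 11.75-fold in megakaryocyte-progenitor-like cells, where each lowest quintile held 1 UMI. In neutrophil-progenitor-like cells, highest in Fcgr3, it was 0.978-fold and 1.075-fold, with log2 intervals that span 0, or 1.26-fold and 1.47-fold per cell. In control HSC/MPP-like cells Fcgr3 RNA was 1.88, 2.71, 6.42, 35.0 and 87.8 CPM over the tag quintiles, whose median tags were 23.5, 55, 96.5, 202 and 610 UMIs. The Utx-labelled library had 1.24, 13.6, 61.8, 83.1 and 102.9 CPM at median tags of 35, 69, 151, 315.5 and 517. The third quintile of the Utx-labelled library, at a tag of 151, thus held more Fcgr3 RNA than the fourth of the control library, at a tag of 202. The lowest quintiles held only 5 and 2 Fcgr3 UMIs, so the size of the whole range, log2 5.29 (4.31 to 7.18) and 5.80 (4.51 to 9.43), is loosely fixed. In maturing-neutrophil-like cells Fcgr3 CPM was lower in the top than in the lowest CD16_32 quintile, 0.685-fold and 0.659-fold (log2 -0.55, -0.66 to -0.43, and -0.60, -0.71 to -0.49), while Fcgr2b CPM was 1.39-fold and 1.42-fold higher. Median depth rose over the same quintiles, from 6849 to 17930 gene UMIs per cell in the control library and from 8020 to 18550 in the other. Counted per cell, Fcgr3 rose with the tag, from 0.963 to 1.74 UMIs and from 0.968 to 1.58 UMIs, and cells with an Fcgr3 UMI rose from 57.2% to 77.6% and from 57.5% to 74.3%. Fcgr2b rose more, from 0.288 to 1.06 and from 0.258 to 0.913 UMIs per cell. Both paralogs thus had more UMIs in cells with more tag, and Fcgr2b rose by more than Fcgr3 on either scale. Cell maturity and depth vary along these quintiles, and their part in the slopes was not tested.

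**Figure D2:**
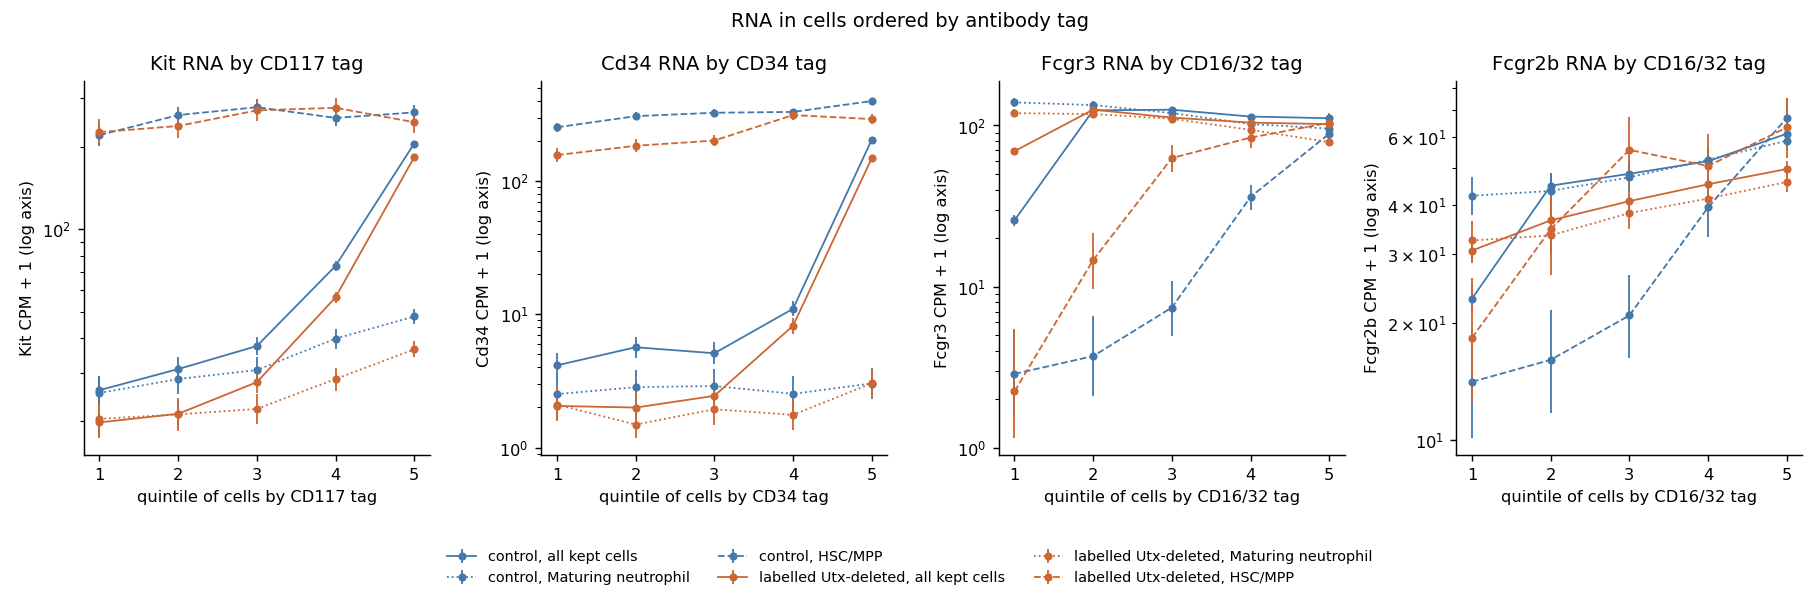
RNA in CPM + 1 (log axis, bars are exact Poisson 95% intervals) is plotted by quintile of cells ordered by the tag, for Kit by CD117, Cd34 by CD34, and Fcgr3 and Fcgr2b by CD16_32; blue is the control library, orange the Utx-labelled library, with solid lines for all kept cells, dotted for maturing-neutrophil-like and dashed for HSC/MPP-like cells. Fcgr3 rises over the HSC/MPP-like quintiles (1.88 to 87.8 CPM in the control library) and falls, as a share of RNA, over the maturing-neutrophil-like ones, where its UMIs per cell rise.

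The neutrophil lineage was then followed by a maturation score, built from 11 late granule and surface genes less 5 early granule genes, none of them among the 4 genes described. Its 5577 control and 5975 other cells were put into 10 bins that hold equal numbers over both libraries together. The bins cover unequal ranges of the score. Bin 1 spanned -5.325 to -0.963 in the control library and -5.356 to -1.013 in the other, while control bin 3 spanned -0.105 to 0.0695. Bin 1 held all neutrophil-progenitor-like cells of both libraries and bin 2 held 0. Over these bins, Kit RNA and CD117 both fell mainly between the first and the second. The size of that step depends on the binning and does not show how abruptly Kit is lost. In the control library Kit RNA was 115.8 CPM in bin 1 and then 40.8, 43.1, 39.7, 38.2, 28.0, 23.5, 25.7, 36.8 and 26.2 CPM. The Utx-labelled library had 150.3 CPM in bin 1 and then 44.3, 30.7, 33.1, 29.5, 23.0, 21.7, 18.9, 17.5 and 17.3 CPM. The second bin thus held 35.2% and 29.5% of the CPM of the first, and the last bin 22.6% and 11.5%. Median depth fell along the score, from 26020 to 6224 gene UMIs per cell in the control library and from 24320 to 7226 in the other. Per cell, Kit fell from 2.93 UMIs in bin 1 to 0.607 in bin 2 and 0.170 in bin 10 of the control library, and from 3.78 to 0.723 and 0.130 in the other.

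The protein tag fell between the same bins. Median CD117 was 140 UMIs in control bin 1 and then 30, 28, 25, 21, 18, 15, 13, 13 and 13, and 207 UMIs in bin 1 of the Utx-labelled library and then 23, 20, 18, 15, 12, 10, 9, 8 and 8. The second bin held 21.4% and 11.1% of the first by median, against 20.7% and 19.1% for Kit UMIs per cell. Whether tag or RNA fell further over all bins depended on the scale: the first bin stood 10.8-fold and 25.9-fold above the last by tag median, 17.2-fold and 29.2-fold by Kit UMIs per cell, and 4.43-fold and 8.67-fold by Kit CPM. Cells with at least 100 CD117 UMIs made up 63.8% and 89.4% of bin 1 but 4.33% and 5.49% of bin 2. From bin 5 on, the CD117 medians in both libraries were at or below 21 and 15, under or near those of B-cell-like cells of the same library (26 and 14), and Kit RNA in the last bin, at 26.2 and 17.3 CPM, lay within the intervals of B-cell-like cells (17.02 to 36.0 and 11.4 to 58.6 CPM). Levels so low are not read as Kit expression here, so these folds describe the counts and do not measure how far either molecule fell.

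The first bin did not hold the same cells in both libraries. Neutrophil-progenitor-like cells were 371 of its 560 control cells (66.3%) and 558 of its 596 cells in the Utx-labelled library (93.6%), the rest coming from maturing-neutrophil-like clusters or an unnamed cluster next to them. Among neutrophil-progenitor-like cells alone, Kit was 131.7 and 153.3 CPM and median CD117 193 and 211.5 UMIs. In CPM, the log2 ratio of Kit RNA between the libraries was 0.38 in bin 1 (0.28 to 0.47) and below 0 in bins 3 to 10, with intervals that span 0 in bins 2, 6 and 7. The part of this mixture or of the falling depth in the steeper decline of the Utx-labelled library was not tested.

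**Figure D3:**
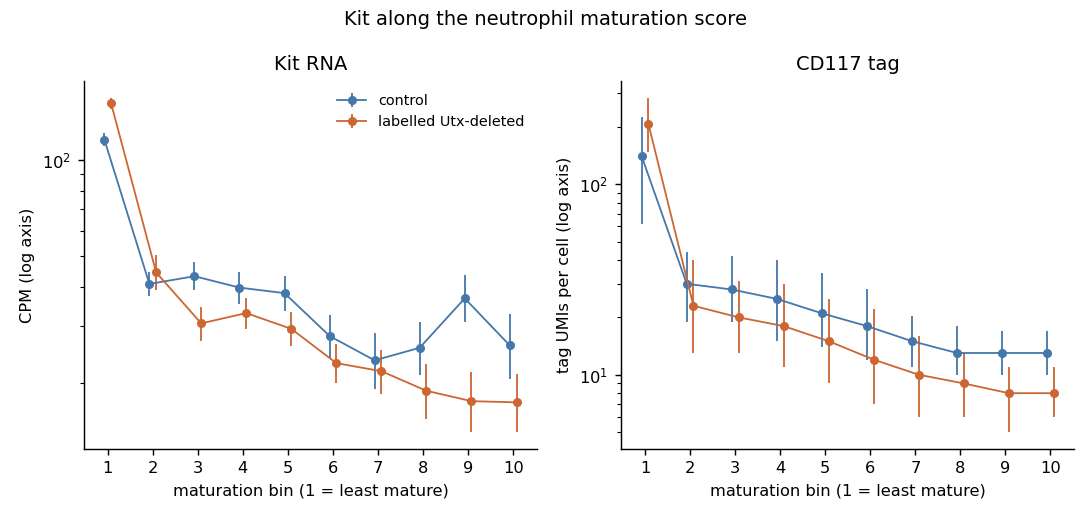
Kit RNA in CPM with exact Poisson 95% intervals (left) and median CD117 UMIs per cell with quartiles over cells (right) are plotted on log axes over 10 bins of the maturation score; blue is the control library and orange the Utx-labelled library. Both fall most from bin 1, which covers the widest range of the score, to bin 2. CD117 falls from 140 to 13 UMIs in the control library and from 207 to 8 in the other.

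Cd34 RNA fell between the same bins as Kit, to a lower share of its first level. It was 60.9 CPM in bin 1 of the control library, 1.16 CPM in bin 2 and 2.15 CPM in bin 10, and 56.4, 1.77 and 0.922 CPM in the Utx-labelled library. Cd34 UMIs per Kit UMI were 0.526 and 0.375 in the first bin and at most 0.108 and 0.0814 in any later bin. The CD34 tag fell from a median of 7 to 3 UMIs and from 12 to 2, and it was already at the lower value in bin 2 in both libraries.

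The Fc receptor genes moved in opposite directions late in maturation. In CPM, Fcgr3 fell and then rose: it was 144.1 CPM in control bin 1, 79.3 in bin 2, and then 81.8, 87.4, 97.6, 109.6, 139.1, 158.0, 210.9 and 226.5 CPM. In the Utx-labelled library it was 151.1, 53.6, 59.1, 64.6, 75.1, 77.9, 93.6, 130.3, 182.8 and 233.4 CPM. Fcgr2b, the inhibitory receptor, was highest early and fell late, from 62.3 CPM in control bin 3 to 24.4 CPM in bin 10, and from 52.0 CPM in bin 5 to 18.1 CPM in bin 10 of the other library. Per cell, Fcgr3 was highest in bin 1, at 3.65 and 3.80 UMIs, fell to 1.18 and 0.873 in bin 2 and reached 1.47 and 1.74 in bin 10, so the late rise was smaller on this scale. Fcgr2b fell from 1.44 and 1.12 UMIs per cell in bin 1 to 0.159 and 0.135 in bin 10. Fcgr3 supplied 56.7% of the UMIs of both genes in control bin 3 and 90.3% in bin 10, and 55.3% in bin 2 and 92.8% in bin 10 of the Utx-labelled library. The assay reads the transcript end, but whether intronic reads were counted is not given, and genes may differ in how well they are captured. The change in these shares is therefore more certain than their level.

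Fcer1g, Fcgr4 and Lyn were higher in the last than in the first bin in both libraries, in CPM and per cell, but unlike Fcgr3 they did not fall between bin 1 and bin 2. Fcer1g, the signalling chain that Fcgr3 needs, went from 295.4 CPM in bin 1 to 1865 CPM in bin 10 of the control library and from 119.6 to 1727 CPM in the other, but from 7.47 to 12.1 and from 3.01 to 12.9 UMIs per cell. Its UMIs per cell were highest mid-way, at 17.5 in control bin 4 and 15.4 in bin 6 of the other library, and lower later while its CPM rose. Fcgr4, another activating IgG receptor, went from 4.52 to 65.6 CPM and from 1.60 to 42.3 CPM. Lyn, a kinase that acts downstream of both Kit and Fc receptors, went from 128.0 to 911.8 CPM and from 96.6 to 800.6 CPM. Fcgr1, the high-affinity IgG receptor gene, was at or below 0.358 CPM in every bin of both libraries.

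The CD16_32 tag moved less along the score than either RNA. Its control medians were 564, 596, 582.5, 568, 502, 482, 426.5, 429, 409 and 428 UMIs over the 10 bins, so the tag was lower late, where Fcgr3 CPM was highest and Fcgr3 UMIs per cell stood below bin 1 but above bin 2. Medians in the Utx-labelled library were 265.5, 374, 363, 357, 332.5, 313, 298, 272, 258 and 282 UMIs. They lay below the control medians in all 10 bins, by 1.43-fold to 2.12-fold.

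**Figure D4:**
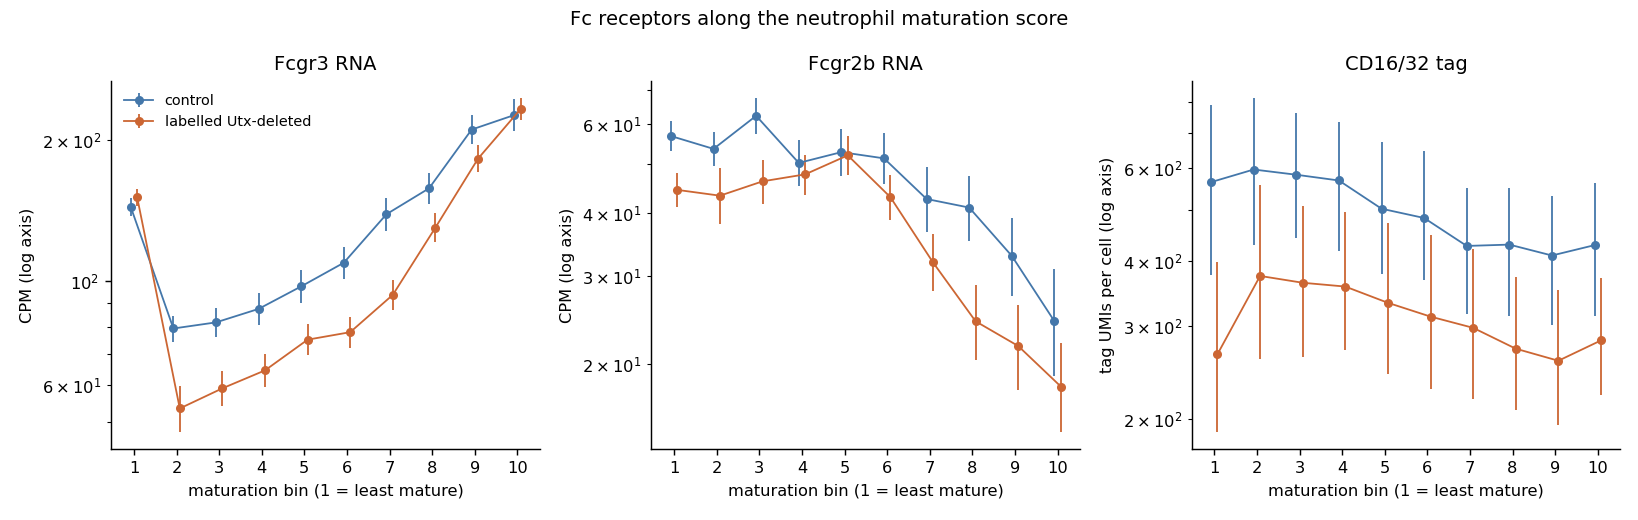
Fcgr3 and Fcgr2b RNA in CPM with exact Poisson 95% intervals and median CD16_32 UMIs per cell with quartiles over cells are plotted over 10 bins of the maturation score; blue is the control library and orange the Utx-labelled library. Fcgr3 rises to 226.5 and 233.4 CPM in bin 10 while Fcgr2b falls to 24.4 and 18.1 CPM and the tag of the Utx-labelled library stays below that of the control library in every bin.

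Between the libraries as a whole the RNA of the 4 genes differed modestly. Over all kept cells Kit was 108.3 CPM in the control library and 91.0 CPM in the Utx-labelled library (log2 ratio -0.25, -0.29 to -0.21). Cd34 was 77.5 and 55.6 CPM (-0.48, -0.53 to -0.43). Fcgr3 was 94.7 and 100.1 CPM (0.08, 0.04 to 0.12), and Fcgr2b 45.3 and 40.8 CPM (-0.15, -0.21 to -0.09). None of the 4 was past 2-fold, where 6.75% of 13558 tested genes were; a gene was tested if both libraries together held 100 UMIs of it or more. The median log2 ratio was -0.20 over the 4 genes and -0.11 over all tested genes. Scaling by TMM (the trimmed mean of M values) moved the ratios up, to -0.13 for Kit, -0.36 for Cd34, 0.21 for Fcgr3 and -0.03 for Fcgr2b. In cells thinned to 2000 UMIs the sign of Fcgr3 turned, to -0.0047.

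These sums mix cell types whose shares differed. HSC/MPP-like cells, the class richest in Cd34, were 8.09% of control cells and 3.91% of cells in the Utx-labelled library, megakaryocyte-progenitor-like cells 4.66% and 1.60%, and monocyte-progenitor-like cells 4.14% and 8.41%. With the 5 compared classes weighted equally in both libraries, the log2 ratio was -0.11 for Kit and -0.32 for Cd34. Cells of hashtag 1 alone gave -0.35 for Kit and -0.75 for Cd34, and those of hashtag 2 alone -0.05 and -0.17, so the spread between hashtag populations was as large as the ratio.

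Within classes, Kit RNA differed in both directions in CPM, and the higher values depended on that scale. It was lower in the Utx-labelled library among megakaryocyte-progenitor-like cells (log2 -0.52, -0.64 to -0.40) and maturing-neutrophil-like cells (-0.43, -0.52 to -0.34). It was higher among monocyte-progenitor-like cells (0.23, 0.13 to 0.34) and neutrophil-progenitor-like cells (0.22, 0.12 to 0.31), and in HSC/MPP-like cells the interval spanned 0 (-0.03, -0.10 to 0.04). Each of the 4 differences away from 0 had the same sign in hashtag 1 and in hashtag 2 cells. Median depth differed, at 33080 and 28660 gene UMIs in monocyte-progenitor-like, 29560 and 24680 in neutrophil-progenitor-like, 26730 and 32340 in HSC/MPP-like and 23090 and 29750 in megakaryocyte-progenitor-like cells. Counted per cell, Kit was at 3.61 and 3.70 UMIs in monocyte-progenitor-like cells (log2 0.04, -0.07 to 0.14) and at 3.99 and 3.97 in neutrophil-progenitor-like cells (-0.01, -0.10 to 0.09), so neither was higher on this scale. HSC/MPP-like cells had 7.18 and 8.23 UMIs per cell (0.20, 0.12 to 0.27). The lower values kept their direction, at -0.21 (-0.33 to -0.09) in megakaryocyte-progenitor-like and -0.35 (-0.44 to -0.26) in maturing-neutrophil-like cells. Kit RNA in maturing-neutrophil-like cells was near the B-cell-like level, so its ratio describes the counts and is not read as a change of Kit expression. In the clusters of maturing neutrophils that both libraries filled, Kit was 39.8 and 25.9 CPM in cluster 13, 48.2 and 44.5 in cluster 14, and 25.9 and 26.7 in cluster 15. Within maturing-neutrophil-like cells the summed level of the 5 neutrophil progenitor markers was also lower in the Utx-labelled library, 308.2 against 930.5 CPM with 5 of 5 lower. In megakaryocyte-progenitor-like cells the summed level of 7 maturing neutrophil markers was higher, 7286 against 2102 CPM with 7 of 7 higher, and that of 7 erythroid markers lower, 587 against 1199 CPM with 7 of 7 lower. Maturing neutrophil markers were also higher, 7 of 7, in neutrophil-progenitor-like cells (5512 against 1965 CPM) and in monocyte-progenitor-like cells (2936 against 1662 CPM) of the Utx-labelled library. Neutrophil progenitor markers were higher, 5 of 5, in its monocyte-progenitor-like cells (19450 against 17110 CPM). Monocyte progenitor markers summed to 385.2 against 202.7 CPM in its neutrophil-progenitor-like cells, with 5 higher and 1 lower. The part of any of these in the Kit values was not tested.

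In CPM, Cd34 RNA was lower in the Utx-labelled library in each of the 5 classes, with intervals below 0 in HSC/MPP-like cells (log2 -0.49, -0.56 to -0.42), neutrophil-progenitor-like cells (-0.38, -0.52 to -0.24) and maturing-neutrophil-like cells (-0.68, -1.14 to -0.23, from 104 and 72 UMIs). In monocyte-progenitor-like cells (-0.07) and megakaryocyte-progenitor-like cells (-0.06) the interval spanned 0. Per cell, Cd34 was at 9.11 and 7.59 UMIs in HSC/MPP-like cells (-0.26, -0.34 to -0.19), 5.92 and 4.91 in monocyte-progenitor-like cells (-0.27, -0.36 to -0.18) and 2.30 and 1.51 in neutrophil-progenitor-like cells (-0.61, -0.75 to -0.47). In megakaryocyte-progenitor-like cells it was 1.02 and 1.21 UMIs, higher in the Utx-labelled library with an interval that spans 0 (0.26, -0.04 to 0.54). In the same HSC/MPP-like cells the summed level of the 8 HSC/MPP markers was also lower in the Utx-labelled library, 740.9 against 1171 CPM with 8 of 8 lower, and that of 5 neutrophil progenitor markers higher, 11700 against 6562 CPM with 5 of 5 higher. Maturing neutrophil markers were higher in neutrophil-progenitor-like cells, and neutrophil progenitor markers lower in maturing-neutrophil-like cells, as given for Kit. The part of these in the Cd34 values was not tested. In maturing-neutrophil-like cells Cd34 RNA was close to the 0.841 CPM of control B-cell-like cells. The share of free RNA in it was not measured, so its ratio is not read as a change of Cd34. The CD34 tag of the same cells, at medians of 3 and 2 UMIs, was no higher than in B-cell-like cells and is not read. Its median was higher in the Utx-labelled library in the other 4 classes, 45 against 52 in HSC/MPP-like, 40 against 44 in monocyte-progenitor-like, 12 against 13 in neutrophil-progenitor-like and 6 against 8 in megakaryocyte-progenitor-like cells. In HSC/MPP-like cells, RNA was thus lower, on either scale, and tag higher in the same cells of the Utx-labelled library, in hashtag 1 and in hashtag 2 cells alike.

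Fcgr3 and Fcgr2b RNA were higher in HSC/MPP-like cells of the Utx-labelled library. Fcgr3 was at 31.9 CPM in the control library, from 504 UMIs, and 56.1 CPM in the other, from 516 UMIs (log2 0.82, 0.64 to 0.996), and Fcgr2b at 33.7 and 44.7 CPM (0.41, 0.22 to 0.60). Hashtag 1 and hashtag 2 cells gave 0.81 and 0.86 for Fcgr3, and 0.60 and 0.31 for Fcgr2b. Per cell, the log2 ratios were 1.04 (0.86 to 1.22) and 0.64 (0.45 to 0.82). In these cells, with their lower HSC/MPP and higher neutrophil progenitor markers, the summed level of 7 maturing neutrophil markers was 944.1 and 2979 CPM, with 7 of 7 higher, and 3 of 3 eosinophil markers were higher. The part of these marker shifts in the Fcgr3 and Fcgr2b values was not tested. In maturing-neutrophil-like cells both genes were lower in the Utx-labelled library, Fcgr3 at log2 -0.19 (-0.24 to -0.14) and Fcgr2b at -0.35 (-0.43 to -0.28), or -0.11 and -0.27 per cell. The neutrophil progenitor markers of these cells were lower too, 308.2 against 930.5 CPM with 5 of 5 lower, and their part in both values was not tested.

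No gene of the 4 that was tested in a class was past 2-fold there in CPM. Per cell, Fcgr3 in HSC/MPP-like cells was just past it, where 4.96% of all tested genes were and the median log2 ratio over them was 0.20. In CPM, the share of all tested genes past 2-fold was 4.9% in HSC/MPP-like, 5.04% in maturing-neutrophil-like, 3.19% in megakaryocyte-progenitor-like, 2.26% in monocyte-progenitor-like and 1.8% in neutrophil-progenitor-like cells. Only Kit and Cd34 had the 100 UMIs needed in the megakaryocyte-progenitor-like class. Fcgr3 was not tested there, and its 3.60 and 8.50 CPM (log2 1.24, 0.47 to 2.01) rested on 30 and 31 UMIs. The top CD16_32 quintile of these cells, 65 and 23 cells, held 25 and 27 of those UMIs. In this class maturing neutrophil markers were higher in the Utx-labelled library, 7286 against 2102 CPM with 7 of 7 higher. Monocyte progenitor markers were higher too, 31 against 7.56 CPM with 6 of 6 higher. The part of these in the Fcgr3 value was not tested.

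By median the CD16_32 tag was lower in the Utx-labelled library in 4 of the 5 classes, and most other antibody tags were lower too. Its control median was 457 UMIs and that of the Utx-labelled library 302 (log2 -0.60, against -0.64 for the CD117 medians of 25 and 16), and within classes it was 918 and 468 in monocyte-progenitor-like, 524 and 266.5 in neutrophil-progenitor-like and 496 and 309 in maturing-neutrophil-like cells. These are 1.96-fold, 1.97-fold and 1.61-fold lower medians. On the per-cell scale of the tag, Fcgr3 RNA was at 3.69 and 3.39 UMIs in monocyte-progenitor-like cells (log2 -0.12, -0.23 to -0.01), 4.89 and 4.01 in neutrophil-progenitor-like cells (-0.28, -0.37 to -0.19) and 1.28 and 1.18 in maturing-neutrophil-like cells (-0.11, -0.16 to -0.06). Fcgr2b RNA, whose product the tag also reads, was at log2 -0.26 (-0.41 to -0.09), -0.61 (-0.77 to -0.45) and -0.27 (-0.35 to -0.19) per cell in these classes. Median depth was lower in the Utx-labelled library too, at 33080 and 28660 gene UMIs in monocyte-progenitor-like and 29560 and 24680 in neutrophil-progenitor-like cells. In maturing-neutrophil-like cells it was 9768 and 9752. The part of depth in these per-cell values was not tested. In CPM the interval spanned 0 for Fcgr3 in the monocyte-progenitor-like (108.0 and 114.0 CPM) and neutrophil-progenitor-like classes and for Fcgr2b in the monocyte-progenitor-like class. Megakaryocyte-progenitor-like cells had medians of 45 and 37 but means of 84.6 and 125.6. In HSC/MPP-like cells the median was higher, at 96 and 150 UMIs, but this rested on hashtag 2 cells, at 87 and 155 UMIs (log2 0.83). Hashtag 1 cells had medians of 107 and 114 (0.09) and means of 230.3 and 193.8, which lie in the other direction. Means are distorted for this tag, because 5 barcodes of the Utx-labelled library with over 20000 antibody UMIs held 9.63% of its CD16_32 UMIs, a single barcode holding 279048. The mean was 516.9 in the control library, and in the other 424.3 with those barcodes and 383.7 without them.

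Of the 10 antibody tags not described here, 8 had lower means in the Utx-labelled library over all kept cells, 8 in monocyte-progenitor-like, 8 in neutrophil-progenitor-like and 9 in maturing-neutrophil-like cells, with median log2 ratios of -0.58, -0.45, -0.39 and -0.69. CD48, a surface molecule of leukocytes, had medians of 1134 and 807, 760 and 552, and 100 and 39 UMIs in these 3 classes in turn. In megakaryocyte-progenitor-like and HSC/MPP-like cells 7 of the 10 tags had lower means, with median log2 ratios of -0.50 and -0.18. The part of such a general difference in the CD16_32 values was not tested.

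The hashtags of the same cells, which are antibody barcodes too, were set beside these tags. Whether a hashtag's shift equals that of the other antibody tags was not tested. The median of a cell's own hashtag was lower in the Utx-labelled library in each of the 5 classes and for both hashtags, by log2 values from -0.63 to -0.19. Less that shift, CD16_32 was at -0.42 and -0.65 in monocyte-progenitor-like cells of hashtag 1 and hashtag 2. It was at -0.57 and -0.42 in neutrophil-progenitor-like cells and at -0.42 and -0.17 in maturing-neutrophil-like cells. The 10 other antibody tags had median log2 ratios of -0.45, -0.39 and -0.69 in these classes, by means and with no shift taken off. In megakaryocyte-progenitor-like cells it was at 0.29 in hashtag 1 and -0.22 in hashtag 2 cells, so the sign differed between hashtags there. In HSC/MPP-like cells it was higher by 0.59 and 1.36, where in hashtag 1 cells the shift makes up most of the value. The CD117 tag, unshifted, had medians of 218 and 225.5 in HSC/MPP-like cells and 19 and 12 in maturing-neutrophil-like cells. Its differences less the hashtag shift were 0.46 to 0.71 in HSC/MPP-like, monocyte-progenitor-like and neutrophil-progenitor-like cells and -0.43 and -0.22 in maturing-neutrophil-like cells. They were -0.07 and -0.15 in megakaryocyte-progenitor-like cells. Staining and capture cannot be told apart from the label with 1 library per group.

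**Figure D5:**
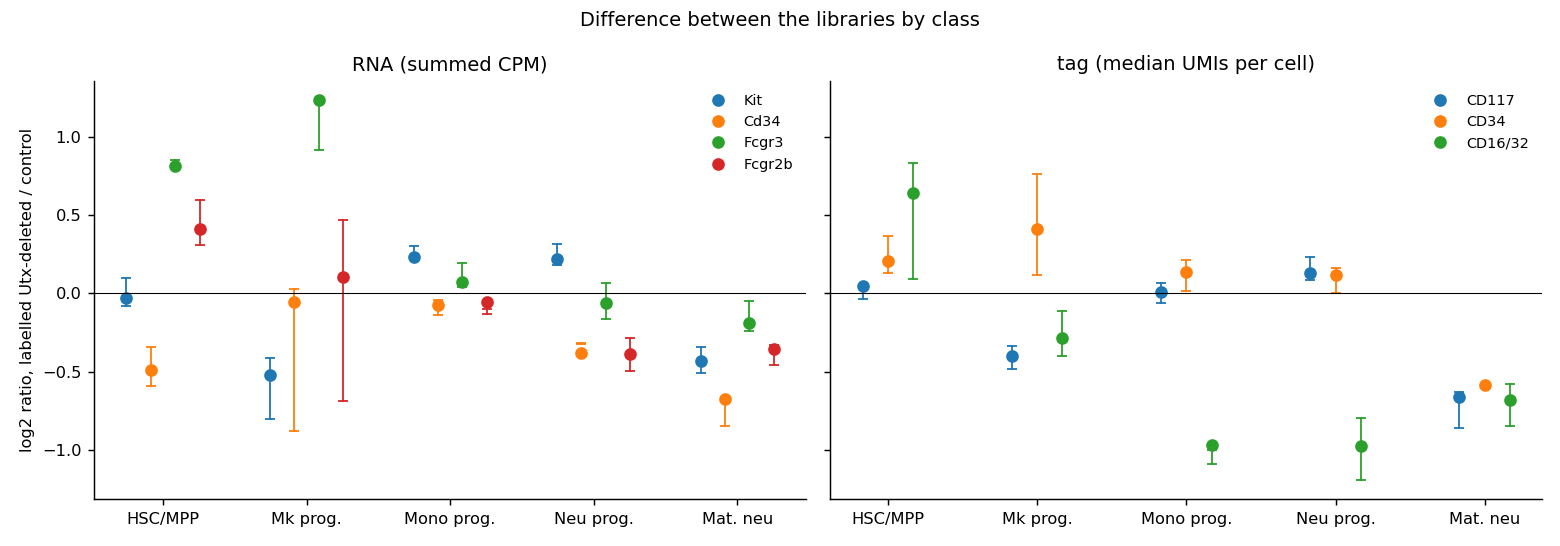
The log2 ratio of the Utx-labelled library over the control library is plotted for 5 classes, from summed RNA CPM on the left and from tag medians on the right; points are the class and the line with end ticks joins the values of hashtag 1 and hashtag 2 cells alone. Fcgr3 RNA is highest in HSC/MPP-like cells among the classes with at least 100 UMIs (0.82), whereas the CD16_32 tag lies below 0 in monocyte-progenitor-like, neutrophil-progenitor-like and maturing-neutrophil-like cells.

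The sorting scheme of flow cytometry was applied to the tags of cells with at least 100 CD117 UMIs, a limit set after the values were seen. These were 1455 of 7011 control cells (20.8%, 19.8 to 21.7, exact binomial) and 1377 of 7206 cells of the Utx-labelled library (19.1%, 18.2 to 20.04), and 418 and 332 cells lay between 80 and 125 UMIs. In the control library they were HSC/MPP-like in 34.4%, neutrophil-progenitor-like in 22.9%, megakaryocyte-progenitor-like in 18.8% and monocyte-progenitor-like in 12.8%. In the other library these shares were 18.8%, 38.3%, 5.66% and 28.1%. Maturing-neutrophil-like cells, most of all kept cells, were only 7.49% and 5.81% of them.

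These cells were divided at their medians over both libraries, 26 UMIs of CD34 and 288.5 UMIs of CD16_32. In the control library the RNA followed the tags: cells high in CD34 and low in CD16_32 had 360.7 CPM of Cd34 and 12.7 CPM of Fcgr3, and cells low in CD34 and high in CD16_32 had 49.7 and 133.8 CPM. In the Utx-labelled library the same divisions had 231.4 CPM of Cd34 with 67.2 CPM of Fcgr3, and 30.5 with 115.9 CPM. Cells low in both tags held 23.2 CPM of Fcgr3 in the control library and 112.3 CPM in the other. Neutrophil-progenitor-like cells were placed there in 27 of 333 cases (8.11%) in the control library and in 195 of 527 (37.0%) in the Utx-labelled library, although their Fcgr3 RNA in that quadrant was 187.0 and 172.4 CPM. Megakaryocyte-progenitor-like cells fell into it in 85.4% and 65.4%, with 0.844 and 1.32 CPM of Fcgr3. The same tag limits therefore selected different mixtures of cells in each library.

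The other genes of these systems were counted over whole lists. Of 18 genes of the Kit pathway 17 had 100 UMIs, and none was past 2-fold in either direction over all kept cells, with a median log2 ratio of -0.13 (2 above 0 and 15 below) against -0.11 over all tested genes. Gab2, an adaptor downstream of Kit, was highest at 142.1 and 161.8 CPM (0.19), and the kinase gene Fyn lowest at 26.1 and 14.3 CPM (-0.87). Kitl, the ligand, was at 0.148 and 0.0437 CPM and was not counted.

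Of 6 further Fc receptor genes 5 were tested over all kept cells. None was higher past 2-fold, where 1.39% of all tested genes were, and 1 was lower, Fcer1a, a chain of the IgE receptor of basophils and mast cells, at 7.68 and 3.23 CPM (log2 -1.25), where 5.36% of all tested genes were lower past 2-fold. The list's median was -0.74. In maturing-neutrophil-like cells 0 of 3 tested genes were higher, against 1.19% of all tested genes, and 2 were lower, Fcgr4 at 27.3 and 13.6 CPM (-1.01) and Ms4a2, another IgE receptor chain, at 2.55 and 0.782 CPM (-1.69), where 3.84% of all tested genes were. The summed level of 6 basophil or mast cell markers in these cells was 3.12 and 1.23 CPM, with 4 lower and 2 higher. Its part in the Ms4a2 value was not tested. In HSC/MPP-like cells 1 of 2 tested genes, Ms4a2, was higher, at 16.9 and 36.1 CPM (1.10), where 1.44% of all tested genes were higher, and none was lower, where 3.46% were. Fcer1g was lower in HSC/MPP-like cells, 118.7 and 65.1 CPM (-0.87, -1.003 to -0.73), in monocyte-progenitor-like cells, 543.5 and 347.3 CPM (-0.65), and in neutrophil-progenitor-like cells, 147.7 and 107.7 CPM (-0.46). Summed over the HSC/MPP-like class, the signalling chain was thus lower and Fcgr3 RNA higher. In this class 8 of 8 HSC/MPP markers were lower, and 5 of 5 neutrophil progenitor, 7 of 7 maturing neutrophil and 3 of 3 eosinophil markers higher. Of 6 basophil or mast cell markers 3 were higher and 2 lower. The part of these in the Ms4a2 and Fcer1g values was not tested. Megakaryocyte-progenitor-like cells went the other way: the 2 tested genes of the list there, Fcer1g and Ms4a2, were above 0, with a median log2 ratio of 0.59.

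The genes whose pattern was most like each of the 4 were found by Pearson's r of log2(CPM + 1) over the 30 cluster-by-library sums, among 12077 genes. They were Abca2, Zfp800 and Frmd4a for Kit (r = 0.94, 0.94 and 0.93), Poglut3, Gspt2 and Atg9b for Cd34 (0.97 for each), Anxa3 and Orai1 for Fcgr3 (0.85 and 0.84), and Xpc, Gpr160 and 1700020L24Rik for Fcgr2b (0.78, 0.78 and 0.75). Among the 4 genes themselves, r was 0.84 between Kit and Cd34, 0.63 between Fcgr3 and Fcgr2b and -0.30 between Kit and Fcgr3. Nothing about shared function is read from these values.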

How the data were processed

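The deposited counts are raw UMIs in each cell barcode, of 32285 genes and of 15 antibody tags that include 2 hashtags. Per the labels' protocols, libraries were made with 10x Genomics 3′ chemistry, and per the submitters' processing notes with Cell Ranger 7.1.0 and mm10. The annotation, the counting of intronic reads and the calling of cells are not given in the sources used here.

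The further steps used scipy 1.17.1, scanpy 1.11.5 and leidenalg 0.10.2 in Python 3.11.15. Barcodes under 500 genes or at 10% or more of mitochondrial UMIs were left out (349 and 214). Scrublet's automatic threshold marked 0.0134% and 0% and had not worked, so the top 6% of scores in each library were left out (467 and 463 barcodes), which treats doublets incompletely. A hashtag was called at 100 UMIs and 5 times the other. Barcodes that carry both hashtags, 204 and 451, were kept.

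Counts scaled to 10000 per cell and logged gave 2000 variable genes, without the described genes, Kdm6a, sex-linked and listed genes, then 30 components, 15 neighbours and 23 Leiden clusters at resolution 1. Clusters were named by the class whose markers scored highest, and 2 stayed unnamed. Doublets, free RNA and this naming can all shift class values. Ratios add 1 UMI to each sum. Genes named were the 4 genes and 3 tags, members of the pathway and family lists, and the 3 genes most like each gene; others were chosen after their values were seen. Some results under this rule are not reported here. These choices, the lists and the genes described were made with earlier results of these data known. In simulated counts, 99% of 200 genes changed 4-fold were recovered past 2-fold and 0 of 13350 others. This covers a 4-fold change only. With 1 library per group it does not measure the spread between libraries and gives no rate of false calls. TMM came from edgeR 4.0.16. Gene models and sequences came from GENCODE M21.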

Additional observations from a re-analysis of the deposited data

Results flagged for a closer look

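Some values moved in opposite directions between cell classes, in hashtag 1 and hashtag 2 cells alike, and none of these contrasts between classes was tested. Log2 ratios are those of the Utx-labelled library over the control library. Kit RNA was higher in monocyte-progenitor-like (0.23) and neutrophil-progenitor-like cells (0.22) and lower in maturing-neutrophil-like (-0.43) and megakaryocyte-progenitor-like cells (-0.52). These RNA ratios are in CPM: per cell, Kit was at 0.04 and -0.01 in the first pair of classes, so no opposite rise remained there, and at -0.35 and -0.21 in the second. Kit RNA in maturing-neutrophil-like cells was near the B-cell-like level and its ratio is not read as a change of Kit expression. Fcgr3 RNA was higher in HSC/MPP-like (0.82) and megakaryocyte-progenitor-like cells (1.24, from 30 and 31 UMIs) and lower in maturing-neutrophil-like cells (-0.19), or 1.04, 1.55 and -0.11 per cell. In megakaryocyte-progenitor-like cells the top CD16_32 quintile held 25 and 27 of those UMIs, and 7 of 7 maturing neutrophil markers were higher. Fcgr2b RNA was higher in HSC/MPP-like cells (0.41) and lower in maturing-neutrophil-like (-0.35) and neutrophil-progenitor-like cells (-0.39), or 0.64, -0.27 and -0.61 per cell. By means, the CD117 tag was higher in neutrophil-progenitor-like cells (0.12) and lower in maturing-neutrophil-like (-0.51) and megakaryocyte-progenitor-like cells (-0.16). The mean CD34 tag was higher in HSC/MPP-like (0.30) and monocyte-progenitor-like cells (0.20) and lower in maturing-neutrophil-like cells (-0.50). By class median, both tags were at or below the B-cell-like level in maturing-neutrophil-like cells. There 9 of 10 other antibody tags were lower too (median log2 -0.69), so the lower class values are not read as changes of CD117 or CD34.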

How the results depend on the processing

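No paired analysis was possible because each group has 1 library. No alternative library exists to leave out, so cells of each hashtag stand in as spread. Of the main values, 79 alternatives moved by less than the counting interval, 84 moved by more and 6 turned sign; the causes were not tested. Log2 ratios between libraries follow in the order named. Kit RNA was -0.11 with equal class weights, -0.35 and -0.049 in hashtag 1 and hashtag 2 cells, -0.13 with TMM, -0.17 thinned and -0.20 without barcodes of both hashtags. Cd34 RNA was -0.32, -0.75, -0.17 and -0.36 with weights, hashtag 1, hashtag 2 and TMM, and -0.42 without barcodes of both. Fcgr3 RNA was 0.22, 0.0084 and 0.21 with hashtag 1, hashtag 2 and TMM and turned to -0.0047 when thinned. Fcgr2b RNA was -0.21 in hashtag 1 cells, -0.026 with TMM and -0.23 thinned.

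Tag ratios by means were -0.15 (CD117), 0.14 (CD34) and -0.29 (CD16_32). They were -0.18, 0.12 and -0.292 with a strict filter, -0.14, 0.16 and -0.18 with no doublets removed, -0.0072, 0.27 and -0.50 with equal class weights, and -0.49, -0.22 (turned) and -0.66 in hashtag 1 cells. Hashtag 2 cells gave 0.098 (turned), 0.40 and -0.40, shares of the antibody UMIs -0.24, 0.046 and -0.38, and centred log ratios -0.0059, 0.19 and 0.19, the last of which turned. Alternatives chosen after seeing the data were medians (-0.64, -0.42, which turned, and -0.60), scaling to hashtag UMIs (0.12, which turned, 0.43 and -0.21), leaving out barcodes of both hashtags (-0.19, 0.12 and -0.52) and leaving out barcodes over 20000 antibody UMIs (CD117 -0.16 and CD16_32 -0.43).

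The log2 ratio of RNA in the highest over the lowest tag quintile moved as follows. When cells were thinned, that of Kit became 3.29 in the control library and 3.59 in the other, where tag shares gave 3.61. For Cd34 in the control library it was 5.31 thinned and 7.37 by tag shares. For Fcgr3 in the control library it was 2.02 with a strict filter, 1.94 with no doublets removed, 2.28 in hashtag 1 cells, 1.16 thinned and 1.54 by tag shares. In the Utx-labelled library Fcgr3 gave 0.46 with no doublets removed, 0.88 in hashtag 2 cells, 0.44 thinned, 0.34 by tag shares and 0.70 without barcodes of both hashtags. Fcgr2b gave 1.68, 1.30 and 1.21 with hashtag 1, hashtag 2 and thinning in the control library, and 0.58 thinned and 1.08 by tag shares in the other. With RNA as UMIs per cell, chosen after seeing the data, the ratios between libraries were -0.21 for Kit and 0.12 for Fcgr3. On that scale the highest over the lowest quintile was 5.11 and 5.19 for Kit, 7.29 and 8.42 for Cd34, 2.45 and 1.22 for Fcgr3 and 1.75 and 1.37 for Fcgr2b, in the control and the Utx-labelled library, and Kit along maturation was -4.09 and -4.85. Along maturation, last over first bin, Kit in the control library was -1.79 by early genes alone. CD117 there was -3.74 with no doublets removed, -3.71 and -3.28 in hashtag 1 and hashtag 2 cells and -3.40 by early genes. In the Utx-labelled library CD117 was -4.68 in hashtag 1 cells, -4.34 by early and -4.58 by late genes. Genes past 2-fold, 915 at a minimum of 100 UMIs, were 1659 at 20 UMIs, 430 at 500 UMIs and 1865 at 1.5-fold. Depth limits Fcgr3 in megakaryocyte-progenitor-like cells and Cd34 in maturing neutrophils, each under 110 UMIs a library.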
